A study of Mus musculus with 46 samples.

Results

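The genes described here are named as subunits of the 5 complexes of oxidative phosphorylation. They were measured in mouse striatal glia from 2 lines of Huntington disease model mice and their wild-type controls. They were chosen by name only: protein-coding genes of the deposited table whose symbol begins with mt-Nd, mt-Co, mt-Cytb or mt-Atp, the Nduf genes of the a, b, c, s and v series, Sdha to Sdhd, the Uqcr genes, Cyc1, the Cox4 to Cox8 genes and the Atp5 genes. This gave 99 genes of 53801 in the table. Of these, 13 are encoded in mitochondrial DNA and 86 in the nucleus. Complex I has 38 nuclear and 7 mitochondrial members, complex II has 4 nuclear members, complex III has 9 and 1, complex IV has 18 and 3, and complex V has 17 and 2. Complexes were assigned by gene name only, so Ndufa4 and its isoform Ndufa4l2 were counted with complex I and the factor gene Atp5s with complex V. No measured value entered the choice, but results of these data were known when it was made.

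Oxidative phosphorylation makes ATP in the inner mitochondrial membrane. Complex I (NADH dehydrogenase) and complex II (succinate dehydrogenase, also an enzyme of the citric acid cycle) pass electrons through coenzyme Q to complex III, cytochrome c and complex IV (cytochrome c oxidase), and complex V (ATP synthase) uses the resulting proton gradient. Mitochondrial DNA encodes core membrane subunits of every complex except complex II, and is transcribed as long polycistronic RNAs inside the organelle. All other subunits are nuclear genes, so each assembled complex other than complex II needs both genomes.

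The libraries were polyadenylated RNA of cells sorted for the PDGFRA-EGFP reporter from striatum, with the sub-ventricular zone discarded. R6/2 mice carry a transgene of human HTT exon 1 with an expanded CAG repeat and have a rapid course. zQ175 mice carry an expanded repeat in the mouse Htt gene itself and have a slower one. The 8 groups, all wild type or mutant on the labels and all sorted by the same reporter, were R6/2 at 6 weeks (n = 6 libraries) and its wild-type control (n = 5), R6/2 at 12 weeks (n = 7) and control (n = 7), zQ175 at 12 weeks (n = 6) and control (n = 6), and zQ175 at 1 year (n = 5) and control (n = 4). The striata of all littermates of 1 genotype were pooled before sorting, so a library stands for several animals and the p-values measure the spread between such pools. In sorted bulk RNA, fewer cells of a type and less RNA per cell cannot be told apart.

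Library totals ran from 23338185 to 49166260 counts. The reporter's own gene, Pdgfra, which encodes the receptor that defines oligodendrocyte progenitors, was low: its mean per group ran from 4.91 to 76.4 CPM (counts scaled to a common library size, here by the TMM method), against 6216 to 13113 CPM for Mbp, a myelin protein gene of mature oligodendrocytes. The label of glial progenitor cells is therefore at odds with the transcript levels, and the libraries are called sorted glia here. At 12 weeks the R6/2 libraries held less mature oligodendrocyte marker RNA than their controls (10 of 10 markers called lower) and more progenitor marker RNA (7 of 10 called higher). Of all genes tested there, 19% were called higher and 19.1% lower. Pdgfra, 1 of the 10 progenitor markers, was not higher on average, at 67.9 CPM in R6/2 and 76.4 CPM in wild type. Htt, the disease gene, was lower in zQ175 than in wild type at 12 weeks (log2 fold change -1.28 ± 0.22 SE, adjusted p = 0.0412 by edgeR) and by a like amount at 1 year without passing the test (-1.33 ± 0.56, adjusted p = 0.393). It had 0.38 (adjusted p = 0.586) in R6/2 at 6 weeks and 0.13 (adjusted p = 0.641) at 12 weeks. A pair of libraries stood apart for the genes described here: replicate 7 of R6/2 at 12 weeks and replicate 1 of R6/2 at 6 weeks, with 21.1 and 20.9 CPM of Pdgfra and 170 and 126 CPM of summed neuron markers. The other R6/2 libraries at 12 weeks had 65.2 to 90.3 CPM of Pdgfra and 84 to 113 CPM of neuron markers. Those at 6 weeks had 25.8 to 68.3 CPM of Pdgfra and 68.7 to 103 CPM of neuron markers, so replicate 1 lay closer to its group.

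The share of all counts on the 13 mitochondrially encoded genes was lowest in the youngest wild-type group, of the R6/2 line, and highest in the oldest, of the zQ175 line. It was 0.892% ± 0.124 (SD, n = 5) in wild type of the R6/2 line at 6 weeks and 1.16% ± 0.614 (n = 6) in R6/2 at that age. At 12 weeks it was 1.19% ± 0.298 (n = 7) in wild type and 1.12% ± 0.604 (n = 7) in R6/2. In the zQ175 line it was 1.94% ± 0.402 (n = 6) in wild type and 1.81% ± 0.619 (n = 6) in zQ175 at 12 weeks, and 2.81% ± 0.502 (n = 4) and 2.43% ± 0.551 (n = 5) at 1 year. The wild types of the 2 lines already had different means at 12 weeks, 1.19% and 1.94%, so line and age both enter the order of the groups. In each of the 4 pairs the ranges of mutant and wild type overlapped. Replicate 7 of R6/2 at 12 weeks had 2.42%, where the other 6 libraries of its group lay between 0.668% and 1.25%, and replicate 1 of R6/2 at 6 weeks had 2.39%, where the other 5 lay between 0.695% and 1.01%.

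The nuclear encoded genes took a share of like size. It was 0.767% ± 0.0544 (n = 5) in wild type and 0.97% ± 0.159 (n = 6) in R6/2 at 6 weeks, and 0.692% ± 0.0465 (n = 7) and 0.837% ± 0.15 (n = 7) at 12 weeks. In the zQ175 line it was 1.23% ± 0.141 (n = 6) in wild type and 1.48% ± 0.0865 (n = 6) in zQ175 at 12 weeks, and 2.05% ± 0.12 (n = 4) and 2.19% ± 0.253 (n = 5) at 1 year. The R6/2 libraries at 6 weeks (0.873% to 1.28%) did not overlap their controls (0.712% to 0.835%), and the groups of the other 3 pairs overlapped. The same 6-week R6/2 libraries had less mature oligodendrocyte marker RNA than their controls, at 66167 to 97052 against 134784 to 139612 summed CPM, with 9 of 10 markers called lower, and its part in the share was not tested. These shares are of all counts. The fold changes below are on the TMM scale, which sets the bulk of genes level, and the choice moves the R6/2 comparisons: with library totals in place of TMM the median of all tested genes was 0.34 on the log2 scale in R6/2 at 12 weeks, 0.23 in R6/2 at 6 weeks, 0.30 in the comparison of the lines at 12 weeks, 0.18 in zQ175 at 1 year, 0.15 in the zQ175 difference between ages, 0.11 in wild type between 6 and 12 weeks and -0.13 in wild type between 12 weeks and 1 year. All fold changes are thus relative to the bulk of genes. The split of calls over all genes moved also: from 470 higher and 527 lower to 733 and 279 in the R6/2 difference between ages, from 7 and 5 to 12 and 4 in zQ175 at 12 weeks, from 12 and 29 to 8 and 5 in the zQ175 difference between ages, and from 1825 and 1959 to 2441 and 1495 in wild type from 6 to 12 weeks.

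**Figure D1:**
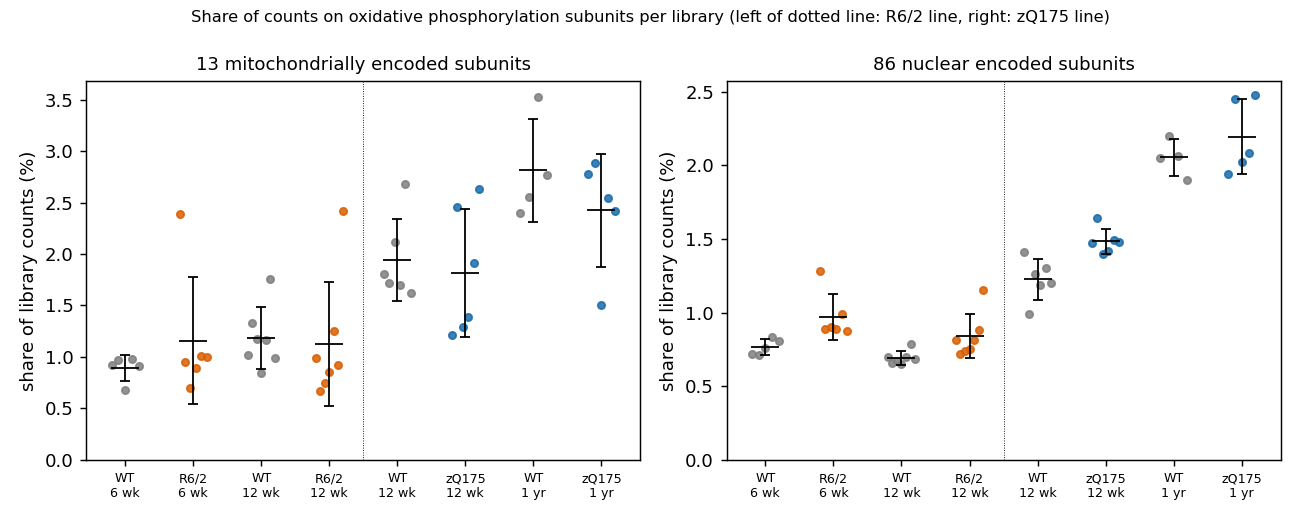
Share of each library's counts (percent, linear axis from 0) on the 13 mitochondrially encoded genes and on the 86 nuclear encoded genes, by group, with points for libraries, a bar for the mean and error bars for the SD. A single orange point in each R6/2 group (2.39% and 2.42% mitochondrial) lies far above the rest, and the zQ175 line, at right of the dotted line, lies higher than the R6/2 line in both panels.

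The balance of the genomes was lower in the mutant than in the control in each of the 4 pairs, with ranges that overlapped in all 4. It is given as the log2 of summed mitochondrial over summed nuclear counts in a library and carries no test. At 6 weeks it was 0.15 ± 0.42 in R6/2 and 0.21 ± 0.24 in wild type, a difference of -0.06 that ran from -0.21 to 0.04 as each library was left out. At 12 weeks it was 0.31 ± 0.41 in R6/2 and 0.74 ± 0.28 in wild type, a difference of -0.43 (-0.56 to -0.36 on leaving out a library). In the zQ175 line it was 0.22 ± 0.44 against 0.65 ± 0.26 at 12 weeks and 0.12 ± 0.37 against 0.44 ± 0.27 at 1 year, differences of -0.42 and -0.32. Between the wild-type ages it differed by 0.53 from 6 to 12 weeks in the R6/2 line and by -0.21 from 12 weeks to 1 year in the zQ175 line. The 12-week wild-type libraries of the R6/2 line stand in 2 of these differences, as do both wild-type groups of the zQ175 line.

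The mitochondrial genes lie so close together that some share bases, which bears on how their reads can be assigned. On GRCm38, the ATP synthase genes mt-Atp8 (chrM:7766-7969, plus strand, 204 bases) and mt-Atp6 (chrM:7927-8607) overlap by 43 bases, and the complex I genes mt-Nd4l (chrM:9877-10173) and mt-Nd4 (chrM:10167-11544) by 7. They are shown because mt-Atp8 is one of the 2 mitochondrial genes called in R6/2 and the gene with the largest fall between the wild-type ages. Capitals mark the shared bases.
mt-Atp8, whole gene: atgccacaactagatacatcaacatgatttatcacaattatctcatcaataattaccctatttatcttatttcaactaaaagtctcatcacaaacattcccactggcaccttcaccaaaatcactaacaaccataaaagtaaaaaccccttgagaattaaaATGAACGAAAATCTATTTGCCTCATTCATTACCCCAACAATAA
mt-Atp6, chrM:7927-8006: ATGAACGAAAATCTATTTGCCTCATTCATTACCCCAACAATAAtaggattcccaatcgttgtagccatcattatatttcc
mt-Nd4l, chrM:10094-10173: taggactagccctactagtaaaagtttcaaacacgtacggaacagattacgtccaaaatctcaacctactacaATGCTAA
mt-Nd4, chrM:10167-10246: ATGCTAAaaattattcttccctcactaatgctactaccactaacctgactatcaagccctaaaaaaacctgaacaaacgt
A read that covers the capitals belongs to both genes of a pair, and the deposited counts were divided between genes by estimation. Of the 99 members, 38 had a value that was not whole in more than 50% of libraries, which marks reads shared with another gene or copy. These include mt-Atp8, mt-Atp6, mt-Co1, mt-Co2, mt-Co3, mt-Nd2, mt-Nd3, mt-Nd4 and mt-Nd4l among the mitochondrial genes and Ndufs1, Ndufs5, Cox4i1, Cox5a, Atp5g1 and Atp5g2 among the nuclear ones, so their levels are less certain. mt-Nd1, mt-Nd6, mt-Cytb, Sdha, Sdhc, Atp5s, Cox6b2, Ndufs7 and Ndufb7 are not among them. mt-Nd6 alone is read from the minus strand, and the library kit keeps no strand.

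In R6/2 at 6 weeks no subunit gene was called. A gene was called where edgeR's quasi-likelihood test gave a Benjamini-Hochberg adjusted p under 0.05 over all genes tested, and 4.66% of all tested genes were called in this comparison (2.33% higher, 2.33% lower). Of the nuclear members, 81 passed the filter on low counts, 0 were called (9 at an unadjusted p under 0.05, 1 higher by DESeq2, where 4.55% of all genes were called higher, and 0 by limma voom) and the median log2 fold change was 0.13, with 73 above 0. In 1 of the 81, Ndufs3, a core subunit of the complex I matrix arm (0.36 ± 0.15, adjusted p = 0.234), every R6/2 library lay above every control, against 2.78% of all genes. All 13 mitochondrial members passed the filter, 0 were called (0 at an unadjusted p under 0.05, 0 by DESeq2 and by limma voom) and their median was 0.19. Of all 14912 genes tested, 2501 had an unadjusted p under 0.05. Without replicate 1 of R6/2, the library with high mitochondrial share, the medians were 0.04 and -0.12, and 1 nuclear member was called lower. Leaving out replicate 4 of wild type gave 1 nuclear call, in the other direction. Without R6/2 replicate 1, 468 of all 14722 genes were called higher and 540 lower. Without wild-type replicate 4 these were 258 and 235 of 15188. The members not tested were Cox6a2, Cox7a1, Cox7b2, Cox8b and Cox8c, isoforms of complex IV subunits known from muscle or testis. With library totals in place of TMM, 13 nuclear members were called higher and 0 lower, and the calls over all genes were 1346 higher (9.03%) and 128 lower (0.858%), in place of 347 and 348.

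In R6/2 at 12 weeks, the mitochondrially encoded genes were all estimated below wild type and 2 of them fell. The median log2 fold change of the 13 was -0.49, against -0.03 over all 14952 genes tested, of which 38.1% were called (19% higher, 19.1% lower). The 2 called were mt-Atp8, a small subunit of the ATP synthase membrane part, and mt-Co3, a core subunit of cytochrome c oxidase. mt-Atp8 had a lowest, median and highest level of 8.27, 15.4 and 25.6 CPM in R6/2 and 14.3, 24.8 and 32.5 CPM in wild type. It fell by 0.79 on the log2 scale (SE 0.25, adjusted p = 0.0202). The 2 groups overlapped, with the wild-type median close to the top R6/2 library.

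mt-Co3 had 345, 624 and 1160 CPM in R6/2 and 747, 899 and 1403 CPM in wild type, in the same order. It fell by 0.68 (SE 0.23, adjusted p = 0.0247), and the ranges overlapped. The call for mt-Atp8 held in each of the 14 fits that left out a library, with a highest adjusted p of 0.0456. That for mt-Co3 was lost without R6/2 replicate 3 (-0.60, adjusted p = 0.0523), R6/2 replicate 4 (-0.61, adjusted p = 0.0535) or wild-type replicate 6 (-0.58, adjusted p = 0.0583), which left 1 mitochondrial call.

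The other mitochondrial genes of complexes IV and V had estimates of like size that did not pass the test. mt-Co1, which encodes the catalytic subunit of complex IV, had 1949, 2226 and 5652 CPM in R6/2 and 2941, 3649 and 5462 CPM in wild type, a log2 fold change of -0.52 ± 0.22 (adjusted p = 0.0744). The highest of all 14 values was thus an R6/2 library, replicate 7. mt-Co2, which carries the copper centre that takes electrons from cytochrome c, had -0.57 ± 0.25 (adjusted p = 0.0892), and mt-Atp6, which forms the proton channel with the c ring, had -0.50 ± 0.25 (adjusted p = 0.119). The 7 complex I genes, which make up the membrane arm's proton pumps and joint, had a median of -0.29. mt-Nd3 stood at -0.49 (adjusted p = 0.222), mt-Nd2 at -0.30 (adjusted p = 0.478), mt-Nd1 at -0.29 (adjusted p = 0.439), mt-Nd4 at -0.21 (adjusted p = 0.587), mt-Nd6 at -0.19 (adjusted p = 0.681) and mt-Nd5 at -0.04 (adjusted p = 0.929). mt-Nd4l, at 0.735 against 1.19 CPM the least abundant mitochondrial gene, had -0.72 ± 0.84 (adjusted p = 0.535). mt-Cytb, the only mitochondrial gene of complex III, had -0.34 (adjusted p = 0.284).

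One library carried much of the spread of these values. Without R6/2 replicate 7, 10 of the 13 mitochondrial genes were called lower, with a median of -0.78, and 46.4% of all genes tested were then called (23.4% higher, 23% lower). mt-Atp6 then had -0.83 ± 0.13 (adjusted p = 8.45e-05), mt-Co1 -0.78 (adjusted p = 0.000139), mt-Co3 -0.88 (adjusted p = 0.00131) and mt-Atp8 -0.98 (adjusted p = 0.00209). mt-Nd1, mt-Nd2, mt-Nd3, mt-Nd4, mt-Co2 and mt-Cytb were the other 6 called, and mt-Nd5, mt-Nd6 and mt-Nd4l were not. This library stood apart in its cells' markers also, with 975 CPM of summed progenitor markers where the other 6 had 1434 to 1609. What sets it apart was not tested. It was not left out of the values above.

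**Figure D2:**
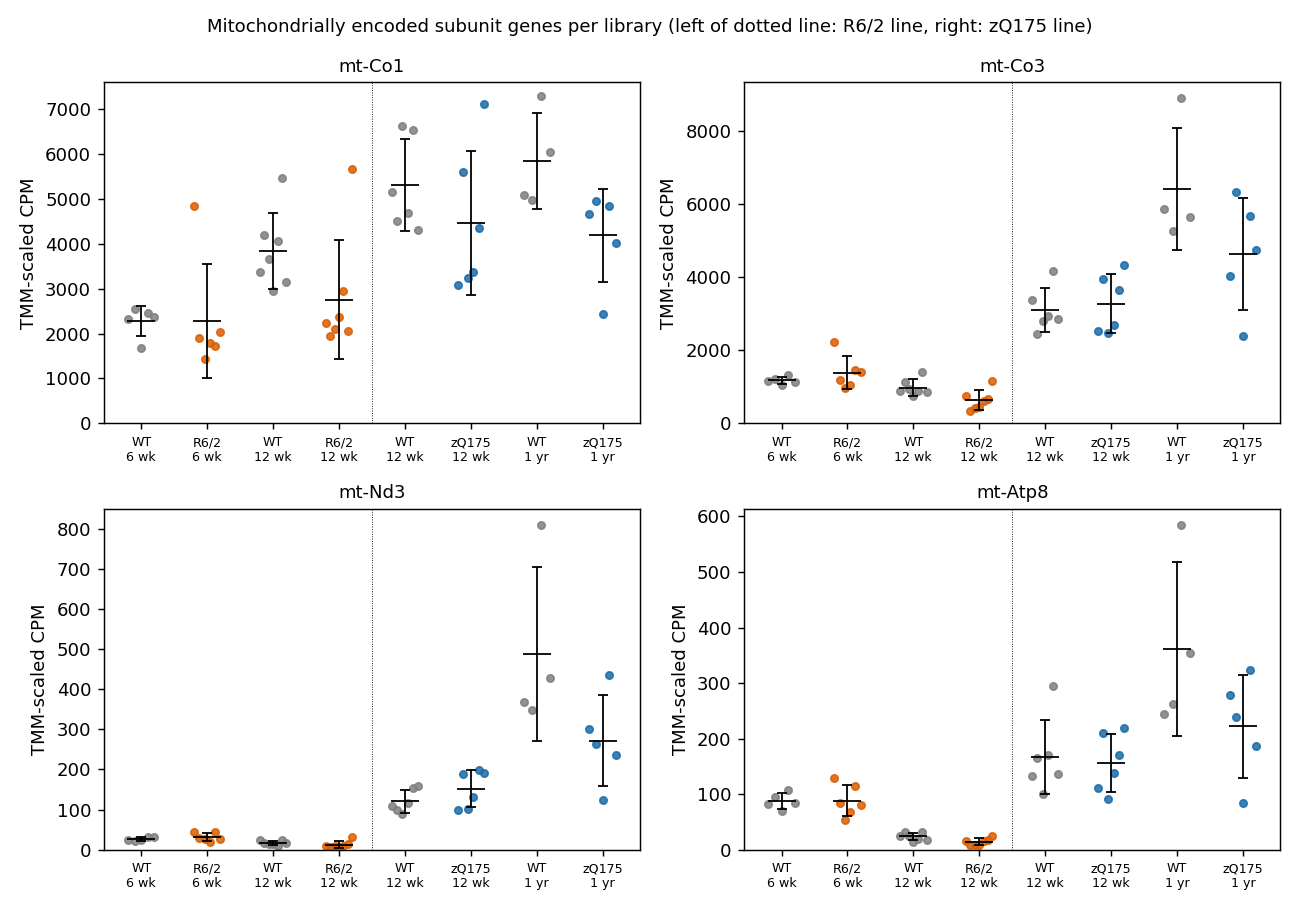
Level (TMM-scaled CPM) of mt-Co1, mt-Co3, mt-Nd3 and mt-Atp8 in each library, by group, with a bar for the group mean. In mt-Co1 the highest R6/2 library at 12 weeks (5652 CPM) lies above all 7 wild-type libraries (2941 to 5462 CPM) while the R6/2 median is 2226 CPM, and in mt-Nd3 and mt-Atp8 the 1-year wild-type group holds the highest values.

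Among the nuclear members in R6/2 at 12 weeks, 10 of the 80 tested fell and 1 rose (18 at an unadjusted p under 0.05), where 19.1% of all genes were called lower. Of all 14952 genes tested, 6893 had an unadjusted p under 0.05, a larger share than 18 of 80. The median was -0.18, with 67 below 0. With complexes assigned by gene name, the falls were spread over 4 of the 5: 5 in complex I, 1 in complex II, 1 in complex III and 3 in complex V. None of those named for complex IV fell, and 1 rose. The 5 in complex I include Ndufa4l2, an isoform of Ndufa4 counted there by its name. The medians of the nuclear members of complexes I to V were -0.15, -0.10, -0.19, -0.18 and -0.19. The 13 tested nuclear subunits of the catalytic core, which hold the redox centres or the ATP-making sites, had 2 that fell and a median of -0.04. The 6 not tested were Cox4i2, Cox6a2, Cox7a1, Cox7b2, Cox8b and Cox8c.

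The gene that rose was Cox6b2, which encodes an isoform of a complex IV subunit known from testis, and it was the nuclear member with the largest change. Its lowest, median and highest levels were 2.89, 4.37 and 6.08 CPM in R6/2 and 1.08, 1.41 and 1.52 CPM in wild type, so every R6/2 library lay above every control (10.4% of all tested genes showed that pattern, 7.42% the reverse). The log2 fold change was 1.56 ± 0.21 (adjusted p = 1.46e-05). Its common counterpart Cox6b1 was far more abundant at 57 and 62 CPM and had -0.17 (adjusted p = 0.434). Cox6b2 was also estimated above wild type in the other 3 mutant groups without passing the test: by 0.95 in R6/2 at 6 weeks (adjusted p = 0.0948), 0.75 ± 0.23 in zQ175 at 12 weeks (adjusted p = 0.153) and 0.91 ± 0.30 in zQ175 at 1 year (adjusted p = 0.25). In zQ175 at 12 weeks its levels were 3.61, 4.52 and 6.47 CPM against 1.87, 2.83 and 3.59 CPM, without overlap, and at 1 year they were 17.8, 29.1, 25, 13.2 and 26.8 CPM against 9.67, 18.2, 10.3 and 10.5 CPM, with overlap.

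Among genes counted with complex V by name, the largest called fall was in Atp5s, which encodes coupling factor B, an ATP synthase factor. Its levels were 12.3, 14.3 and 15.1 CPM in R6/2 and 17.7, 20.5 and 25.4 CPM in wild type. It fell by 0.62 (SE 0.09, adjusted p = 3.59e-05), and it was the only nuclear member whose R6/2 libraries all lay below every control. Atp5k, the subunit e gene of the membrane part, fell by 0.53 (SE 0.20, adjusted p = 0.0439), from 6.84 ± 1.1 CPM to 4.9 ± 1.6 CPM (SD), and the call held in 4 of 14 fits with a library left out. The gene of the delta subunit of the rotating stalk, Atp5d, named after its values were seen, fell by 0.31 (adjusted p = 0.0354), held in 4 of 14. Atp5a1 and Atp5b, the genes of the alpha and beta subunits of the catalytic head, were not called, and Atp5b had 0.00 (adjusted p = 0.966). Of the 3 genes for the c ring, Atp5g1, Atp5g2 and Atp5g3, none was called.

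In complex II, Sdhc, a membrane anchor subunit, fell and its partners did not pass. Sdhc had 35.6, 39.5 and 51.5 CPM in R6/2 and 48.5, 55.3 and 61.6 CPM in wild type, with overlap. It fell by 0.48 (SE 0.10, adjusted p = 0.00104), and the call held in all 14 fits that left out a library. Sdha, the flavoprotein that oxidises succinate, had 564 ± 73.2 CPM against 492 ± 41 CPM, a log2 fold change of 0.15 ± 0.08 (adjusted p = 0.188). Sdhb, the iron-sulphur subunit, had 115 ± 16.8 CPM against 124 ± 5.11 CPM.

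In complex I, Ndufs7 and Ndufs1, both iron-sulphur subunits of the matrix arm, fell. Ndufs7 had 73.4, 79 and 131 CPM in R6/2 and 112, 122 and 129 CPM in wild type, and fell by 0.51 (SE 0.12, adjusted p = 0.00289). Its top library, above all controls, was again replicate 7. Ndufs1 had 110, 145 and 153 CPM in R6/2 and 142, 163 and 176 CPM in wild type, and fell by 0.25 (SE 0.08, adjusted p = 0.0154). Both calls held in all 14 fits with a library left out, but the estimate of Ndufs1 turned to 0.12 (adjusted p = 0.155) with library totals in place of TMM. Ndufa4l2, an isoform of Ndufa4 known from hypoxia, fell by 1.43 (SE 0.55, adjusted p = 0.0483) at levels of 0.117 against 0.309 CPM, a call kept in 2 of 14 fits. Ndufa6 and Ndufs5, accessory subunits named after their values were seen, fell by 0.47 (adjusted p = 0.0281, held in 9 of 14) and 0.39 (adjusted p = 0.0406, held in 3 of 14). In complex III, Uqcr11, a small accessory subunit, had 27.7, 34 and 63.3 CPM against 41.6, 51.7 and 62.8 CPM and fell by 0.50 (SE 0.16, adjusted p = 0.019), a call held in all 14.

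The count of nuclear calls at 12 weeks rested on single libraries. Without R6/2 replicate 7 it was 53 lower and 3 higher of 80, where 23% of all genes were lower and 23.4% higher, with a median of -0.31. The share of members called lower was thus below that of all genes with this library and above it without. The 3 higher were Cox6b2, Sdha (0.21, adjusted p = 0.0228) and Atp5a1, the alpha subunit of ATP synthase (0.15, adjusted p = 0.0216). Without R6/2 replicate 2 or 3 or wild-type replicate 3 or 6 it was 7 in either direction, and without R6/2 replicate 4 or 5 it was 6. Over all genes these fits called 5170 (of 15128) to 5418 (of 15142), in place of 5704. With library totals in place of TMM, 19 nuclear members were called higher and 1 lower, no mitochondrial member was called, and the calls over all genes were 7058 higher (47.2%) and 1152 lower (7.7%), in place of 2848 and 2856. Relative to the median of all genes the medians of the members were -0.15 (nuclear) and -0.47 (mitochondrial) on either scale.

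Markers of other cells differed between the same groups of libraries. Summed neuron markers were 110 ± 28.5 CPM in R6/2 and 54.7 ± 4.95 CPM in wild type at 12 weeks, with ranges of 84 to 170 and 46.8 to 62.7 CPM, and summed astrocyte markers were 687 to 982 against 417 to 601 CPM, without overlap. The ranges were 74 to 189 against 111 to 324 CPM for microglia, 14.4 to 48.9 against 36.5 to 136 CPM for endothelial, 93.4 to 191 against 156 to 357 CPM for mural and 189 to 347 against 292 to 798 CPM for fibroblast markers, with overlap. No tested marker of these lists had a mean of 0 in either group, and Pdgfra stands in the fibroblast and the progenitor lists, Cspg4 in the mural and the progenitor lists. By list, 4 of 9 neuron markers tested were called higher and 1 lower, 5 of 10 microglia, 5 of 10 endothelial and 7 of 8 fibroblast markers were called lower, and 4 of 9 mural markers were lower and 1 higher. Of 10 astrocyte markers 3 were higher and 5 lower, with a median of -0.58, so that their sum and their median differed in direction. With the mean log2 CPM of the markers of these 6 cell types as a covariate, 4 nuclear members were higher and 2 lower (12.9% and 13.7% of all genes), and Cox6b2 (1.84, adjusted p = 0.000124), Atp5s (-0.54, adjusted p = 0.00823) and Ndufs1 (-0.42, adjusted p = 0.0053) kept their calls. The median of the mitochondrial members turned from -0.49 to 0.36 in that fit, and 1 was called: mt-Nd5, higher by 0.75 (adjusted p = 0.0446). The estimate of mt-Co3 became 0.07 (adjusted p = 0.824). This covariate is 1 mean over lists that moved in different directions. Their median log2 fold changes were 0.62 for neuron, -1.29 for endothelial and -1.53 for fibroblast markers. It is thus no measure of a single cell type, and its markers themselves differ with genotype, so the fit cannot separate the 2.

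**Figure D3:**
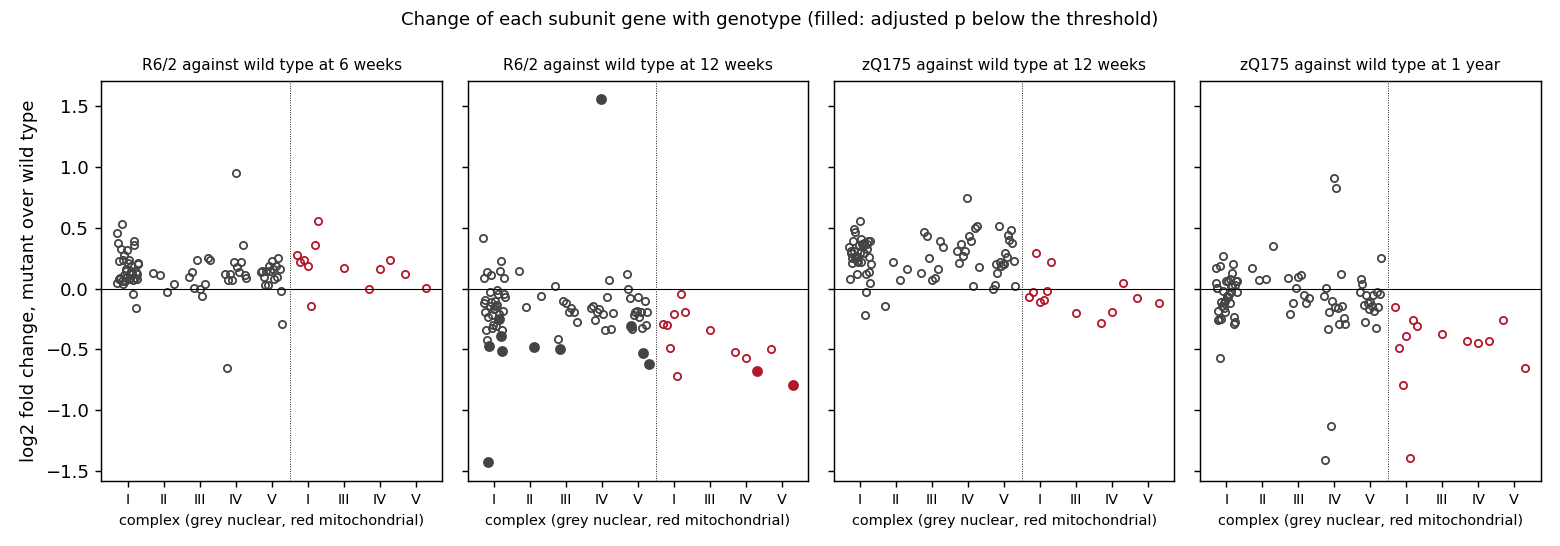
Log2 fold change (mutant against wild type) of each tested member, by complex, in the 4 genotype comparisons, with grey points for nuclear and red points for mitochondrial genes and filled points for called genes. Filled points are present in 1 of the 4 panels, R6/2 at 12 weeks, with 11 nuclear and 2 mitochondrial calls, and in the zQ175 panel at 12 weeks the grey points lie mostly above 0 with a median of 0.27.

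In zQ175 at 12 weeks the nuclear members lay above wild type as a group without any passing the test. Of 79 tested, 75 were above 0 and the median was 0.27. None was called by edgeR, with 58 at an unadjusted p under 0.05, 0 by limma voom and 21 higher by DESeq2, where 2.09% of all genes were called higher. In the edgeR fit 0.0835% of all genes tested were called (0.0487% higher, 0.0348% lower). An unadjusted p under 0.05 was found for 2143 of 14372 genes. In 8 members every zQ175 library lay above every control, against 1.01% of all genes. The medians by complex were 0.29, 0.12, 0.25, 0.34 and 0.22 for complexes I to V. Cox6c, a small complex IV subunit named after its values were seen, had 0.43 ± 0.09 with the lowest adjusted p among the members (0.0848). Cox4i1, a regulatory subunit of complex IV, had 655, 706 and 793 CPM as lowest, median and highest in zQ175 and 418, 594 and 666 CPM in wild type. Uqcr11 had 150, 163 and 191 CPM in zQ175 and 90.1, 121 and 153 CPM in wild type, a log2 fold change of 0.43 ± 0.11 (adjusted p = 0.108).

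The mitochondrially encoded genes of the same libraries showed no such displacement. Their median was -0.08, with 3 of 13 above 0. None was called (0 at an unadjusted p under 0.05, 0 by DESeq2 and by limma voom). The medians of the mitochondrial genes of complexes I, IV and V were -0.03, -0.19 and -0.10. mt-Co1 had 3071, 3865 and 7116 CPM in zQ175 and 4309, 4913 and 6608 CPM in wild type, and the groups overlapped widely. The median of the 13 moved between -0.20 and 0.10 as each library was left out. The 7 members not tested were those not tested in R6/2 at 12 weeks and Ndufa4l2.

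In zQ175 at 1 year no member of either genome was called. The 84 nuclear members tested had a median of -0.06, with 31 above 0 (3 at an unadjusted p under 0.05, 0 by DESeq2 and limma voom). The 13 mitochondrial members were all estimated below wild type, with a median of -0.43 (3 at an unadjusted p under 0.05, 0 by DESeq2 and limma voom), and 0.00669% of all genes were called (0% higher, 0.00669% lower). Over all 14951 genes tested, 1706 had an unadjusted p under 0.05. mt-Co1 had 4667, 4940, 2444, 4841 and 4024 CPM in zQ175 and 5087, 4967, 7277 and 6036 CPM in wild type, the only mitochondrial gene whose groups did not overlap (2.72% of all genes had every mutant library below every control). mt-Nd3 had 301, 263, 123, 436 and 236 CPM against 367, 348, 809 and 428 CPM, a log2 fold change of -0.79 ± 0.32 (adjusted p = 0.369). Replicate 4 held the lowest zQ175 value and the highest wild-type value of both genes, and the median of the 13 was -0.27 without the wild-type library and -0.26 without the zQ175 library. Cox7b2 and Cox8c were not tested. With markers of other cells as a covariate, mt-Nd3 (-1.20, adjusted p = 0.0484) and mt-Nd4l (-1.99, adjusted p = 0.0368) were called lower, where 0.415% of all genes were called lower.

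The change of the genotype effect with age was tested in each line and passed for no member. In R6/2 the effect at 12 weeks lay below that at 6 weeks by a median of 0.28 on the log2 scale for the 82 nuclear members (79 below 0, 11 at an unadjusted p under 0.05) and by 0.58 for the 13 mitochondrial ones (2 at an unadjusted p under 0.05). Of all genes 6.04% were called (2.85% higher, 3.19% lower), and DESeq2 and limma voom called 0 members also. An unadjusted p under 0.05 was found for 3132 of 16513 genes. Without R6/2 replicate 7 of 12 weeks, 28 nuclear and 5 mitochondrial members were called lower, with medians of -0.46 and -0.97 and 10.9% of all genes called (3.9% higher, 6.96% lower). Without R6/2 replicate 1 of 6 weeks, none was called and the medians were -0.18 and -0.25. In zQ175 the effect at 1 year lay below that at 12 weeks by a median of 0.36 for the 84 nuclear members (73 below 0, 37 at an unadjusted p under 0.05, 6 lower by DESeq2, where 0.969% of all genes were called lower, and 0 by limma voom) and by 0.33 for the 13 mitochondrial ones (2 at an unadjusted p under 0.05, 0 by either other tool). Of all genes 0.248% were called (0.0726% higher, 0.175% lower), and 2083 of 16535 had an unadjusted p under 0.05. With a smooth trend of expression on transcript length removed from each library, an alternative chosen after seeing the data, the nuclear and mitochondrial medians were -0.09 and -0.38 in R6/2, where mt-Co3 was called lower (-0.69, adjusted p = 0.0275, 4.09% of all genes lower), and -0.11 and -0.22 in zQ175. With the marker covariate they were -0.06 and 0.00 in R6/2. These tests use the same libraries as the comparisons at each age.

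At 12 weeks both lines were sampled, and the test of the difference between their genotype effects called 26 of the 80 nuclear members: 24 were lower and 2 higher in R6/2 than in zQ175, relative to each line's controls. Of all 16221 genes tested, 21.2% were called (10.8% higher, 10.4% lower), and 5403 had an unadjusted p under 0.05. The median was -0.43 for the nuclear members, with 74 below 0, and -0.37 for the mitochondrial members, of which none was called (1 at an unadjusted p under 0.05, 0 by DESeq2 and limma voom). The members called lower were 11 in complex I, 2 in complex II, 2 in complex III, 4 in complex IV and 5 in complex V. With the length trend removed the medians were -0.18 and -0.07, with 22 nuclear members lower and 4 higher (12.8% and 9.49% of all genes). With the marker covariate they were -0.28 and 0.13, with 7 nuclear members lower and 1 higher (9.38% and 9.62% of all genes), so most calls were lost and the mitochondrial median changed sign. A difference between the mutations and one between the lines cannot be told apart here.

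Uqcr11, Atp5k and Uqcr10, small accessory subunits of complexes III and V, had the largest differences downward, and all 3 calls held in each of 26 fits that left out a library. Their transcripts are short, at 445, 371 and 434 bases. Other genes under 500 bases had a median of -0.56 in this comparison and members of that length -0.62. A shift shared by short genes is thus part of these values, and leaving out libraries does not address it. Uqcr11 differed by -0.91 ± 0.20 (adjusted p = 0.00193), from -0.50 in R6/2 and 0.43 in zQ175. Atp5k differed by -0.91 ± 0.25 (adjusted p = 0.00954), from -0.53 in R6/2 and 0.40 in zQ175, and its level itself differed between the lines' wild types, at 6.84 ± 1.1 and 47.2 ± 13 CPM. Uqcr10 differed by -0.87 ± 0.25 (adjusted p = 0.0138), from -0.41 and 0.47. Atp5s (-0.62 ± 0.14, adjusted p = 0.00234) and Sdhc (-0.53 ± 0.13, adjusted p = 0.00397) were also lower in all 26. The 2 higher were Cox6b2 (0.82 ± 0.29, adjusted p = 0.0425) and Sdha (0.30 ± 0.10, adjusted p = 0.0398), which held in 11 and 12 of the 26 fits.

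That count also moved with single libraries. Without R6/2 replicate 7 it was 63 lower and 1 higher, and 3 mitochondrial members were lower, where 29.3% of all genes were called (14.2% higher, 15.1% lower). Without wild-type replicate 2 of the zQ175 line it was 13 lower and 1 higher, and without wild-type replicate 6 of the R6/2 line it was 17 lower and 0 higher. Over all genes the first of these fits called 1468 lower and 1523 higher of 16537. The second called 1538 lower and 1555 higher of 16134. With library totals, 5 nuclear members were called higher and 1 lower, and the calls over all genes were 4372 higher (27%) and 712 lower (4.39%) in place of 1750 and 1689.

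**Figure D4:**
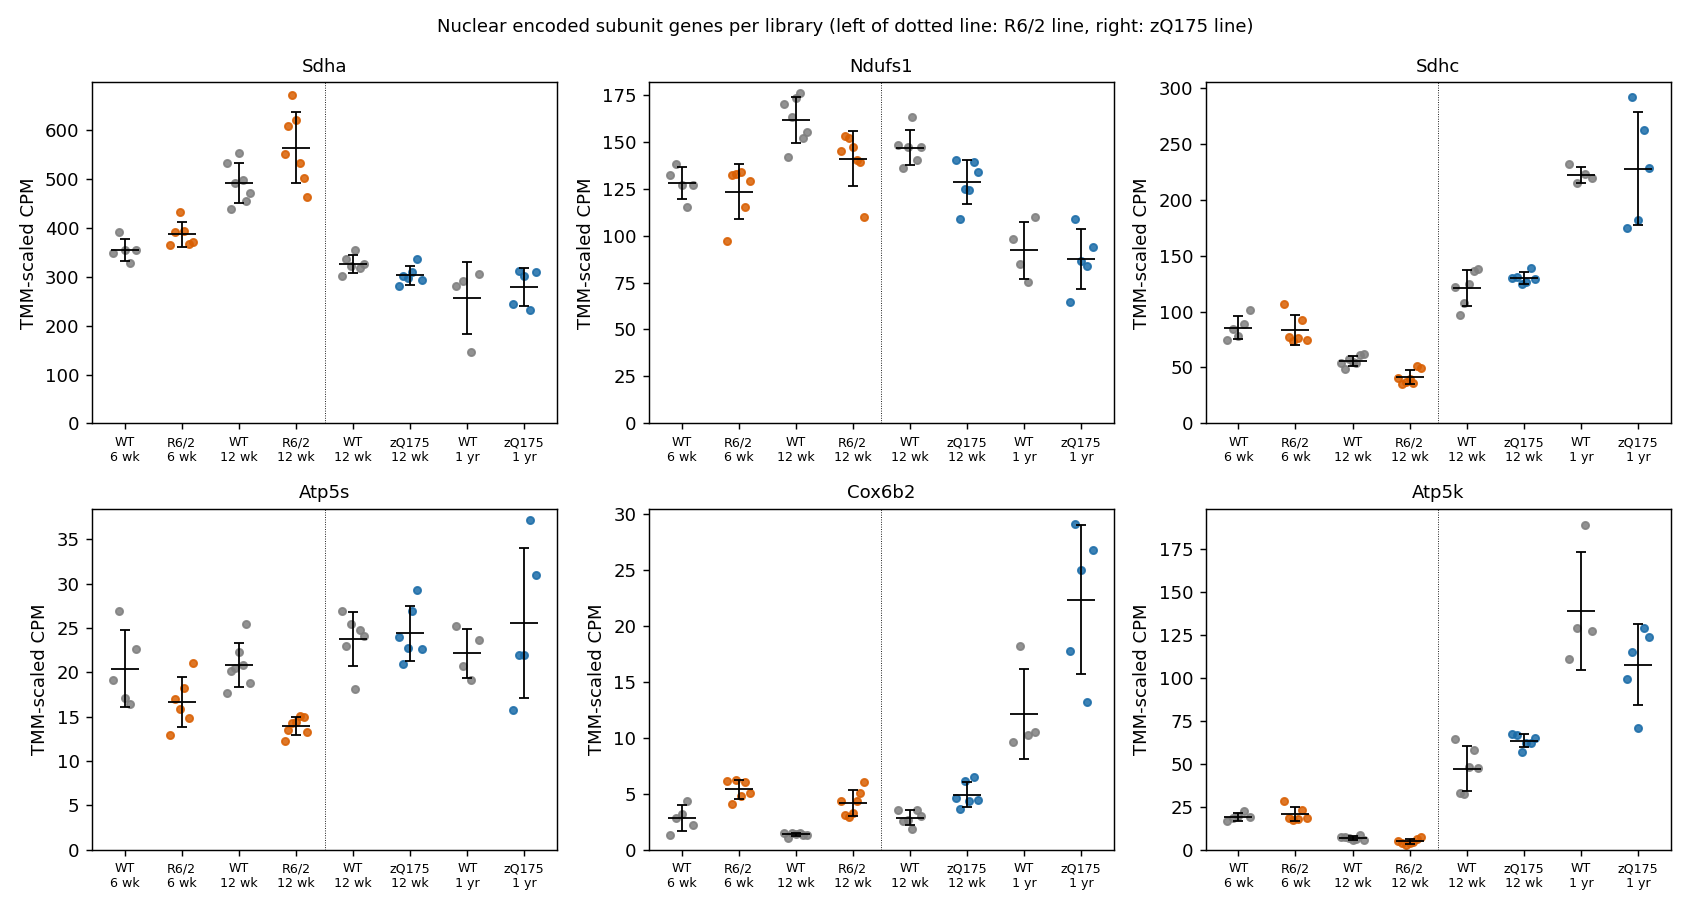
Level (TMM-scaled CPM) of Sdha, Ndufs1, Sdhc, Atp5s, Cox6b2 and Atp5k in each library, by group, with a bar for the group mean. Cox6b2 lies above the controls in each mutant group on average (4.17 against 1.37 CPM in R6/2 at 12 weeks, 22.4 against 12.2 CPM in zQ175 at 1 year), and Atp5k differs more between lines and ages than between genotypes.

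Wild-type libraries of different ages were compared within each line. The labels give no batch, and libraries of different ages may differ in it. A change with age and one with batch cannot be told apart here. From 6 to 12 weeks in the R6/2 line, 55 of the 80 nuclear members tested fell and 2 rose, with a median of -0.37, against 25.4% of all genes called (12.2% higher, 13.1% lower). In 34 members every 12-week library lay below every 6-week library (8.11% of all genes), and in 2 above (5.26%). By complex, 27 of 38 fell in complex I, 2 of 4 in complex II, 4 of 9 in complex III, 11 of 12 in complex IV and 11 of 17 in complex V, with medians of -0.34, -0.16, -0.23, -0.62 and -0.36. With the length trend removed, 26 nuclear members fell and 9 rose, with a median of -0.06 (12.5% and 10.1% of all genes).

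Of the falls, Atp5k had the largest among nuclear members. Its 6-week libraries had 16.5, 18.5, 19.8, 22.6 and 18.8 CPM and its 12-week libraries 5.5, 6.66 and 8.86 CPM as lowest, median and highest. It fell by 1.49 (SE 0.13, adjusted p = 4.31e-06). Ndufb7, an accessory subunit of the complex I membrane arm, fell by 1.16 (SE 0.10, adjusted p = 3.27e-06), from 60 ± 8.63 to 26.8 ± 2.74 CPM. Cox6b2 fell by 1.03 (SE 0.30, adjusted p = 0.0206), a call lost without the 6-week library of replicate 4 (-0.83, adjusted p = 0.0641). The 2 that rose are catalytic core subunits: Sdha went from 348, 391, 354, 328 and 354 CPM to between 439 and 553 CPM (log2 fold change 0.47 ± 0.06, adjusted p = 0.000121), and Ndufs1 rose by 0.34 (SE 0.07, adjusted p = 0.00152). Neither overlapped between the ages. The 13 core subunits had 2 that rose, 2 that fell and a median of -0.09, and Atp5b had -0.01 (adjusted p = 0.894).

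The mitochondrial genes moved in both directions over the same weeks, with a median of 0.21. mt-Atp8 fell most. Its 6-week libraries had 81.6, 95.5, 70.4, 108 and 84.7 CPM and its 12-week libraries 14.3, 24.8 and 32.5 CPM, without overlap, and it fell by 1.87 (SE 0.18, adjusted p = 8.79e-06). mt-Atp6, with which it shares bases and a transcript, had 0.16 (adjusted p = 0.485). Less mt-Atp8 RNA and a different division of reads between the 2 genes cannot be told apart here. mt-Nd6 (-0.96 ± 0.24, adjusted p = 0.00902) and mt-Nd3 (-0.63, adjusted p = 0.0317) fell also. mt-Co1 rose by 0.75 (SE 0.15, adjusted p = 0.00162), from 2332, 2548, 1683, 2461 and 2358 CPM to 2941, 3649 and 5462 CPM without overlap, and mt-Nd5 rose by 0.55 (adjusted p = 0.0379). The calls for mt-Atp8, mt-Co1 and mt-Nd6 held in all 12 fits with a library left out, that for mt-Nd3 in 8 and that for mt-Nd5 in 5. Of the 5 calls 3 were left without 12-week replicate 3 and without 6-week replicate 4 or 6. Over all genes these fits called 3256, 3452 and 3307, in place of 3784.

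From 12 weeks to 1 year in the zQ175 line, 70 of the 81 nuclear members tested rose and 1 fell, with a median of 0.97, against 39.8% of all genes called (18.4% higher, 21.4% lower). With the length trend removed, 27 rose and 3 fell, with a median of 0.14 (16.6% and 13.2% of all genes). In 69 members every 1-year library lay above every 12-week library (15.7% of all genes). By complex, 36 of 38 rose in complex I, 2 of 4 in complex II, 7 of 9 in complex III, 12 of 13 in complex IV and 13 of 17 in complex V. Cox6a1 and Cox8a, the common forms of 2 small complex IV subunits, rose by 1.61 (SE 0.12, adjusted p = 4.18e-06) and 1.62 (SE 0.15, adjusted p = 8.12e-06). Cox6a1 had 929, 916, 1146 and 875 CPM at 1 year and 241, 325 and 351 CPM at 12 weeks, far apart.

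Cox6b2 rose by 2.04 (SE 0.29, adjusted p = 0.000129) and its counterpart Cox6b1 by 1.16 (adjusted p = 1.25e-05). Ndufa4l2 rose by 3.06 (SE 0.99, adjusted p = 0.0247), with 1.89, 1.1, 3.16 and 0.0692 CPM at 1 year and 0 to 0.32 CPM at 12 weeks, a call lost without the 1-year library of replicate 4 (2.47, adjusted p = 0.0718). The 3 c ring genes Atp5g1, Atp5g2 and Atp5g3 rose by 1.16, 1.23 and 1.02. Of 13 core subunits 9 rose and 1 fell, with a median of 0.43 (0.17 with the length trend removed). Cyc1, the cytochrome c1 of complex III, rose by 0.58 (adjusted p = 0.000635), Uqcrfs1, its iron-sulphur protein, by 0.43 (adjusted p = 0.00242), Ndufv1, the NADH-binding subunit, by 0.42 (adjusted p = 0.00737) and Atp5a1 by 0.33 (adjusted p = 0.0103). Atp5b had 0.10 ± 0.10 (adjusted p = 0.472). Sdha had -0.40 (adjusted p = 0.0802), where Sdhb and Sdhc rose by 0.76 (adjusted p = 7.88e-05) and 0.83 (adjusted p = 5.97e-05). The 1 that fell was Ndufs1, with 98.1, 84.7, 75.4 and 110 CPM at 1 year and 136, 147 and 163 CPM at 12 weeks (-0.72 ± 0.11, adjusted p = 0.000286).

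Of the 13 mitochondrial genes 10 rose between these ages, with a median of 0.98, and in 5 of them the groups did not overlap. mt-Nd3 rose most, by 1.96 (SE 0.23, adjusted p = 3.39e-05), with 367, 348, 809 and 428 CPM at 1 year and 90.1, 113 and 159 CPM at 12 weeks. mt-Co3 rose by 1.00 (SE 0.16, adjusted p = 0.000314), from 2450, 2887 and 4175 CPM to 5857, 5263, 8900 and 5641 CPM. mt-Nd4l (1.43, adjusted p = 0.0197, lost without the 1-year library of replicate 4, at 1.12 and adjusted p = 0.0635), mt-Nd6 (1.22), mt-Nd2 (1.18), mt-Atp8 (1.06), mt-Atp6 (0.98), mt-Nd1 (0.89), mt-Co2 (0.72) and mt-Nd4 (0.70) rose also. The 3 not called were mt-Cytb (0.38, adjusted p = 0.09), mt-Co1 (0.09, adjusted p = 0.652) and mt-Nd5 (-0.15, adjusted p = 0.542), the last 2 of them the longest of the 13. Per kilobase of gene, the 1-year wild-type mean was 8730 CPM for mt-Atp6, 8183 CPM for mt-Co3, 3781 CPM for mt-Co1 and 81.6 CPM for mt-Nd4l. Assigned counts thus differed widely even on that scale. mt-Nd4l has only 297 bases, shares some with mt-Nd4, and had values that were not whole in 93.5% of libraries. The part of read assignment in its low value was not tested.

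Other markers also differed between the wild-type ages. From 12 weeks to 1 year the summed markers went from 104–176 to 168–324 CPM for microglia (6 of 10 called higher), from 22–60.2 to 65.6–150 CPM for endothelial cells (5 of 10 higher, 1 lower), from 17.4–72 to 105–242 CPM for mural cells (4 of 9 higher) and from 30.3–108 to 77–288 CPM for fibroblasts (4 of 8 higher), and 6 of 10 mature oligodendrocyte markers were called lower and 1 higher. From 6 to 12 weeks, endothelial markers went from 24.3–56.7 to 36.5–136 CPM (4 of 10 called higher) and 8 of 10 mature oligodendrocyte markers fell. Their part in the changes of the subunit genes was not tested beyond the fits with markers as a covariate, in which Sdha (0.54, adjusted p = 0.00101), Ndufs1 (0.41, adjusted p = 0.00498) and mt-Atp8 (-2.24, adjusted p = 1.66e-05) kept their calls from 6 to 12 weeks and mt-Co1 did not (0.47, adjusted p = 0.0772), and the mitochondrial median turned from 0.21 to -0.12.

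The subunit genes are short, and the changes of short genes moved together in these libraries. The median coding transcript was 720 bases for nuclear members, against 2895 for the other genes tested, and 41 of 86 nuclear members were shorter than 700 bases against 2.31% of other tested genes. For mitochondrial members, which are transcribed as long joint RNAs, the length used is that of the gene, with a median of 784 bases. From 12 weeks to 1 year, other genes under 500 bases had a median of 1.19 and members of that length 1.18. From 500 to 700 bases the medians were 0.98 and 1.09, from 700 to 1000 they were 0.74 and 0.99, from 1000 to 1500 they were 0.42 and 0.76, and from 1500 to 3000 they were -0.09 and 0.31. From 6 to 12 weeks the medians under 500 bases were -0.54 for other genes and -0.63 for members, from 500 to 700 bases -0.33 and -0.45, from 700 to 1000 bases -0.22 and -0.39, from 1000 to 1500 bases -0.11 and -0.24, and from 1500 to 3000 bases 0.00 and -0.03. In zQ175 against wild type at 12 weeks they were 0.36 and 0.38 under 500 bases, and 0.01 and 0.07 from 1500 to 3000. In R6/2 against wild type at 12 weeks they were -0.22 and -0.27 under 500 bases and -0.18 and -0.19 from 500 to 700. From 700 to 1000 bases they were -0.12 and -0.21 there, from 1000 to 1500 -0.05 and -0.09, and from 1500 to 3000 -0.02 and -0.05. The nuclear members' fall in that comparison was thus close to that of other genes as short under 700 bases, and further from 0 from 700 to 1000 bases. These medians include R6/2 replicate 7. Without it the nuclear members' median fall was larger, as given above, and medians by length were not computed. In the classes from 700 to 1500 bases the members' medians lay further from 0 than those of other genes in both wild-type comparisons. Spearman's rho of fold change with length, given as a description across genes, was -0.67 over 81 nuclear members, -0.83 over 13 mitochondrial ones and -0.33 over 12684 other genes from 12 weeks to 1 year. It was 0.59, 0.86 and 0.28 from 6 to 12 weeks (80, 13 and 13096 genes), and -0.67, -0.23 and -0.43 in zQ175 at 12 weeks (79, 13 and 12409 genes). In R6/2 at 12 weeks it was 0.33, 0.57 and 0.08 (80, 13 and 13206 genes).

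With the length trend removed, fewer nuclear members were called between the wild-type ages, as given above, and more in R6/2 at 12 weeks. The trend was fitted over nuclear genes, and for mitochondrial genes the length of the gene was used. mt-Atp8 was entered at 204 bases, though it shares a transcript with mt-Atp6. The length-removed values of mitochondrial genes, here and above, are thus less certain than those of nuclear ones. From 12 weeks to 1 year 2 mitochondrial members were higher and 1 lower, in place of 10 and 0, with a median of 0.09 in place of 0.98. Sdhc (1.26, adjusted p = 2.03e-05), Cox6a1 (0.60, adjusted p = 0.000203), Cox8a (0.58, adjusted p = 0.000632), Cox6b2 (0.88, adjusted p = 0.0293) and mt-Nd3 (0.53, adjusted p = 0.0485) remained higher and Ndufs1 lower (-0.45, adjusted p = 0.00261), while mt-Atp8 turned from 1.06 to -0.72 (adjusted p = 0.0432). That turn of mt-Atp8 rests on the gene length used and is not read as a fall. From 6 to 12 weeks the mitochondrial members went the other way, with more calls and a median of 0.43 in place of 0.21: 7 were higher and 1, mt-Atp8, lower (-1.10 ± 0.14, adjusted p = 9.48e-05). In R6/2 at 12 weeks 7 nuclear members were higher and 18 lower, with a median of -0.06 (21.8% and 20.3% of all genes), and 5 mitochondrial members, mt-Co1, mt-Co2, mt-Co3, mt-Atp6 and mt-Atp8, were lower, with a median of -0.34. In R6/2 at 6 weeks the medians were 0.01 and 0.04, and Ndufa11 (0.24, adjusted p = 0.0463) was called higher and Ndufs7 (-0.29, adjusted p = 0.0129) lower, where 2.81% and 3.47% of all genes were. In zQ175 at 12 weeks the medians were 0.06 for nuclear and -0.25 for mitochondrial members.

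**Figure D5:**
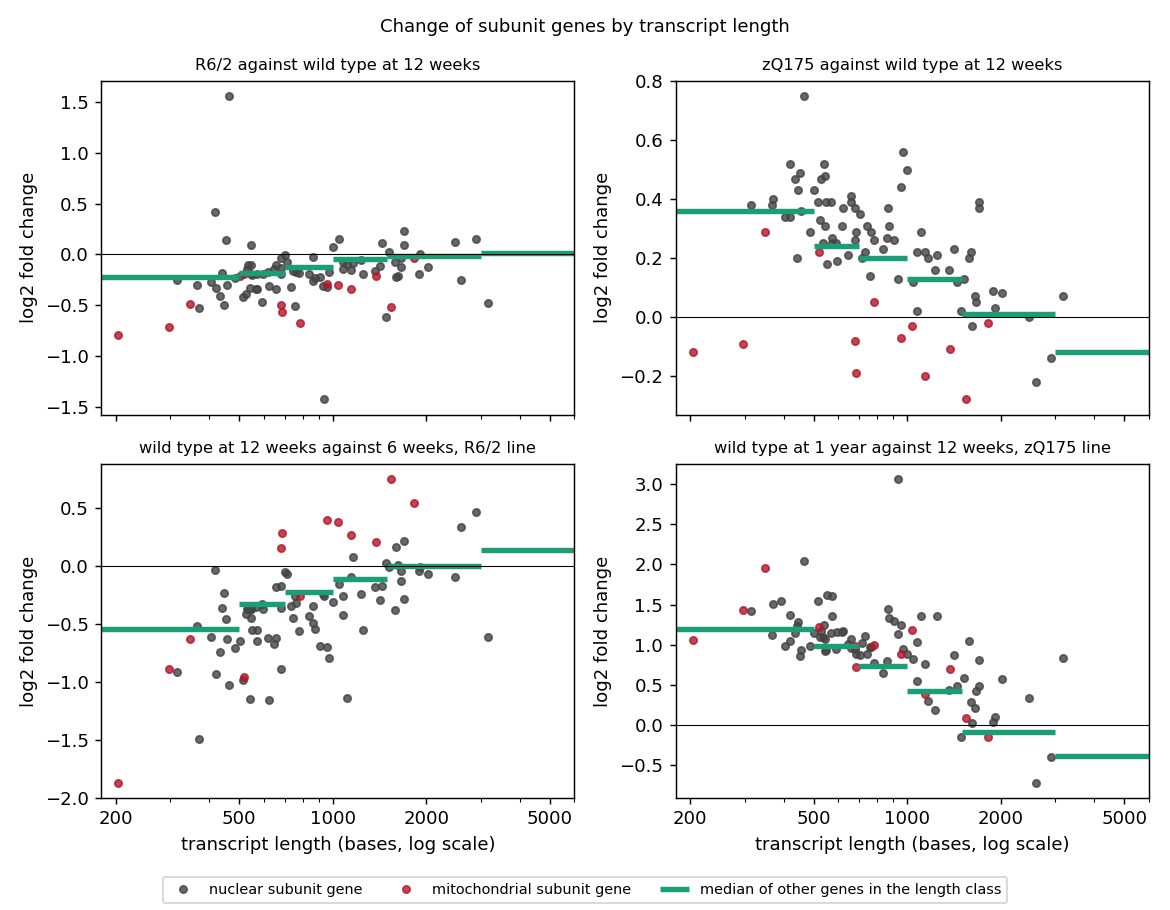
Log2 fold change of each member against the length of its shortest principal coding transcript (bases, log axis) in 4 comparisons, with black points for nuclear genes, red points for mitochondrial genes and green bars for the median of other genes in each length class. For mitochondrial genes the length is that of the gene. In wild type at 1 year against 12 weeks the green bars go from 1.19 under 500 bases to -0.09 at 1500 to 3000 bases, where the black points have medians of 1.18 and 0.31, and the red points lie below the green bars in zQ175 at 12 weeks.

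Other mitochondrial and metabolic genes, from lists chosen beside the members, give the setting of the R6/2 values at 12 weeks. In that comparison 19% of all genes were called higher and 19.1% lower, and a count near those shares is no result about a list. Of 19 glycolysis genes 10 rose and 3 fell, with a median of 0.30. Pkm, which makes pyruvate, rose by 1.55 (SE 0.07, adjusted p = 8.17e-11), from 301 ± 22.3 to 912 ± 65.1 CPM, and Pfkm, a phosphofructokinase gene, rose by 1.25 (SE 0.12, adjusted p = 3.62e-07). The monocarboxylate transporter gene Slc16a1 fell by 0.91 (SE 0.09, adjusted p = 6.12e-07) and the enolase gene Eno2 by 0.77 (SE 0.12, adjusted p = 6.54e-05). Of 18 citric acid cycle genes 4 fell and 1 rose. Idh2, the mitochondrial NADP-linked isocitrate dehydrogenase, fell by 0.85 (SE 0.11, adjusted p = 6.04e-06), and Suclg2, a succinyl-CoA ligase subunit, rose by 1.50 (SE 0.18, adjusted p = 5.39e-06). In R6/2 at 6 weeks, where 4.66% of all genes were called, 6 of 19 glycolysis genes were higher and 0 lower, Pkm (1.18 ± 0.08, adjusted p = 7.59e-06) and Eno1 (0.95 ± 0.14, adjusted p = 0.00226) most.

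Assembly factors, which build the complexes but are not part of them, moved both ways in R6/2 at 12 weeks, with 5 higher and 4 lower of 45 and a median of 0.03. Lyrm7, which inserts the iron-sulphur protein of complex III, fell by 1.08 (SE 0.18, adjusted p = 0.000112), and Pet100, a complex IV factor, fell by 0.67 (SE 0.18, adjusted p = 0.00698). Ndufaf6, a complex I factor, and Ttc19, a complex III factor, rose by 0.95 (adjusted p = 0.00376) and 0.80 (adjusted p = 1.85e-06). Among 11 regulators of mitochondrial biogenesis 1 rose and 1 fell. Ppargc1a, the coactivator PGC-1 alpha, rose by 1.21 (SE 0.21, adjusted p = 0.000155) at low levels, 4.64 ± 0.733 against 1.93 ± 0.593 CPM, and Gabpb1 fell by 0.34 (adjusted p = 0.023). Nrf1 (-0.11, adjusted p = 0.496) and Gabpa (0.06, adjusted p = 0.756), 2 factors known to bind promoters of subunit genes, did not pass, nor did Tfam, the packaging factor of mitochondrial DNA (0.10, adjusted p = 0.449), or Cycs, cytochrome c (-0.18, adjusted p = 0.331). Of 21 genes of mitochondrial DNA maintenance and transcription 3 fell and none rose, with Top1mt, a mitochondrial topoisomerase, at -0.93 (adjusted p = 0.00397) and Supv3l1, an RNA helicase, at -0.48 (adjusted p = 0.0125). None of the 14 electron carrier genes was called. In the 2 zQ175 comparisons no gene of these lists was called. From 12 weeks to 1 year in wild type, where 18.4% of all genes rose and 21.4% fell, 17 of 46 assembly factors rose and 3 fell, 8 of 19 glycolysis genes rose and 2 fell, and 2 of 18 citric acid cycle genes rose and 6 fell.

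Promoters were available for 67 of the 86 nuclear members, as the 250 bases before each RefSeq start on GRCm38.p6 and 50 after it. The NRF1 motif, the letters GCGCA and GCGC with any 1 base between them, was found on either strand in 17 of them (25.4%) against 7.17% of 17492 promoters in the table. The ETS motif CCGGAAG was found in 16 (23.9%) against 12.9%, and the YY1 motif AAGATGGCG in 7 (10.4%) against 2.14%. The ETS and YY1 letters can share the bases AAG. A match is a match of letters only. Upstream sequences are printed for Atp5k and Uqcr11, which had the largest differences between the lines downward, and Sdha and Cox6b2, the 2 called in the other direction. All 4 are minus-strand genes, printed 5′ to 3′ on the gene's strand, with NRF1 letters in capitals.
Atp5k, chr5:108434400-108434649: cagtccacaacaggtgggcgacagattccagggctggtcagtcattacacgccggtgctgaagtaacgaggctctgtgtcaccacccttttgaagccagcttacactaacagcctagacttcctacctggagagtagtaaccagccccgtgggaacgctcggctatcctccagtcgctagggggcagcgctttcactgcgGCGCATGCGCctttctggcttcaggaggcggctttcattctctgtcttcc
Uqcr11, chr10:80406822-80407071: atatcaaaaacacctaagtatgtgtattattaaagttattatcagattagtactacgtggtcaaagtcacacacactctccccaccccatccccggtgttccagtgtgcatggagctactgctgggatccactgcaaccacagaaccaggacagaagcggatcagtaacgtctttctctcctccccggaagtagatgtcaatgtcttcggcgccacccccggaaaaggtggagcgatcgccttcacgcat
Sdha, chr13:74350241-74350490: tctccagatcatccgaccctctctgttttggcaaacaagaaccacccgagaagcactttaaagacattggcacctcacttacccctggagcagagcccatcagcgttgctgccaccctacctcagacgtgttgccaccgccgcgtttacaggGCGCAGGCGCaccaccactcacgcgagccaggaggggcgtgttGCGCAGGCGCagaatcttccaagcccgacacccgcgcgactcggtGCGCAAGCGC
Cox6b2, chr7:4753095-4753344: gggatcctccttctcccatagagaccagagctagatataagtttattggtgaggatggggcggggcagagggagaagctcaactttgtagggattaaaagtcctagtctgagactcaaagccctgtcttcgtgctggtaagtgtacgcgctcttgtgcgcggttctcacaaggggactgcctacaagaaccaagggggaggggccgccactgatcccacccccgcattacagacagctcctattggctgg
Atp5k held 1 NRF1 match and Sdha held 3, and no NRF1 match stood in the printed bases of Uqcr11 and Cox6b2. The printed bases of Uqcr11 do hold the ETS letters CCGGAAG, which are not marked. Atp5k and Sdha, both with an NRF1 match, were called in opposite directions in the comparison of the lines.

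The remaining members were rarely detected isoforms. Cox8c was at 0 in every library. Cox4i2, Cox6a2, Cox7a1, Cox7b2 and Cox8b, forms of complex IV subunits known from lung, muscle or testis, had group means of 0.0798 to 0.892, 0.0351 to 0.867, 0.0901 to 1.48, 0.00334 to 0.241 and 0.00607 to 0.409 CPM. Their common forms were far more abundant, with Cox4i1 at 188 to 1088 CPM and Cox6a1 at 109 to 967 CPM. Of these only Cox7a1 was tested in wild type at 1 year against 12 weeks, with levels of 0.721 to 1.07 CPM against 0.217 to 0.379 CPM and without overlap, a log2 fold change of 1.55 ± 0.61 (adjusted p = 0.0588).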

How the data were processed

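The data were RNA-seq libraries of sorted striatal glia, 46 in 8 groups. Per the submitters' processing notes, the authors used CASAVA, STAR 2.5.2b and RSEM 1.3.0, and the deposited table holds expected counts per gene and library, of which 9.4% are not whole. GRCh38, a build of the human genome, is listed there, while the identifiers are those of mouse genes. Positions and symbols were taken from GENCODE M21 on GRCm38, which matched 53706 of 53801 identifiers. 1 annotated member had no row there and is not analysed here.

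Expected counts were rounded, and only the groups compared entered each fit. edgeR 4.0.16 (R 4.3.3) was run with filterByExpr, TMM scaling, robust quasi-likelihood tests and Benjamini-Hochberg adjustment over all genes tested, with a threshold of 0.05. The scripts were tested on simulated data. The members and the lists beside them were chosen with earlier results of these data known. Alternatives were DESeq2 1.42.0, limma voom 3.58.1, library totals, no filter on low counts, library sizes without mitochondrial genes, all groups in 1 fit, a replicate block, markers of other cells as a covariate and each library left out. Removal of the length trend (lowess span 0.3, fitted over nuclear protein-coding genes) was added after seeing the data. Levels are CPM on the TMM scale over all libraries. No interval or test was computed for summed shares or ratios. Named were all mitochondrial members in R6/2 at 12 weeks, up to 2 called members in each direction per complex and genotype comparison, up to 3 per interaction and wild-type comparison, fixed core, c ring and isoform genes, up to 2 called genes in each direction per other list and 5 regulators or carriers. Members named outside this rule are marked as chosen after their values were seen. Total counts per library, given at the opening, limit the precision of genes under a few CPM.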

Additional observations from a re-analysis of the deposited data

Results flagged for a closer look

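A pair of R6/2 libraries lay far from the rest of their groups in the share of counts on the subunit genes. Replicate 7 of R6/2 at 12 weeks had 2.42% on mitochondrial and 1.15% on nuclear members, and replicate 1 of R6/2 at 6 weeks had 2.39% and 1.28%. Replicate 7 was also the lowest of its group for Ndufs1, at 110 CPM. Results without these libraries are given beside the results that rest on them.

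Other libraries at a distance from their group were replicate 3 of wild type at 6 weeks in the R6/2 line, with a mitochondrial share of 0.677%, replicate 6 of wild type at 12 weeks in that line, with a nuclear share of 0.788%, and replicate 2 of zQ175 at 12 weeks, with a nuclear share of 1.64%. In wild type of the zQ175 line at 1 year, replicate 4 had a low Sdha level (147 CPM) and a high mt-Co3 level (8900 CPM), and replicate 3 had a high Cox6b2 level (18.2 CPM). Replicate 5 of the 12-week wild type of that line had 294 CPM of mt-Atp8. In all, 12 of 96 sets of values tested held such a library, and chance alone gives about 1 in 20.

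Between the lines at 12 weeks the genotype effects differed by the test of the difference itself for Uqcr11 (-0.91), Atp5k (-0.91), Uqcr10 (-0.87), Cox6b2 (0.82) and Sdha (0.30), all as log2 differences of R6/2 minus zQ175.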

How the results depend on the processing

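Counts below are of called members. With each library left out, nuclear calls ran from 0 to 1 (R6/2 at 6 weeks), 6 to 56 (R6/2 at 12 weeks), 0 to 28 (R6/2 difference between ages), 0 to 1 (zQ175 difference between ages), 14 to 64 (lines at 12 weeks), 52 to 60 (wild type from 6 to 12 weeks) and 70 to 73 (wild type from 12 weeks to 1 year), and were 0 in both zQ175 comparisons. Mitochondrial calls ran from 1 to 10 (R6/2 at 12 weeks), 0 to 5 (R6/2 difference between ages), 0 to 3 (lines at 12 weeks), 3 to 5 and 9 to 11 (wild type), and were 0 elsewhere. Over all genes the same fits called 448 to 1008 in R6/2 at 6 weeks and 5170 to 7026 at 12 weeks. In the differences between ages they called 729 to 1784 (R6/2) and 0 to 353 (zQ175), and between the lines 2991 to 4724. In wild type they called 3176 to 3673 and 5174 to 5958. The log2 ratio of mitochondrial to nuclear counts ran from -0.21 to 0.04, -0.56 to -0.36, -0.54 to -0.32 and -0.43 to -0.19 in R6/2 at 6 and 12 weeks and zQ175 at 12 weeks and 1 year.

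DESeq2 gave 1 nuclear call in R6/2 at 6 weeks, 21 in zQ175 at 12 weeks and 6 in the zQ175 difference between ages. Library totals without TMM gave 13 nuclear calls in R6/2 at 6 weeks, 20 nuclear and 0 mitochondrial in R6/2 at 12 weeks, and 6 nuclear between the lines, and turned Ndufs1 in R6/2 at 12 weeks to 0.12. Without a filter on low counts there were 7 nuclear and 1 mitochondrial calls in R6/2 at 12 weeks, and limma voom gave 5 mitochondrial there. With all 8 groups in 1 fit there was 1 nuclear call in R6/2 at 6 weeks and 1 in zQ175 at 1 year, and from 6 to 12 weeks in wild type there were 36 nuclear and 2 mitochondrial. With markers of other cells as a covariate there were 6 nuclear and 1 mitochondrial calls in R6/2 at 12 weeks (mt-Co3 at 0.07), 2 mitochondrial in zQ175 at 1 year, 8 nuclear between the lines and 3 mitochondrial from 6 to 12 weeks. The cause of each was not tested. For the fits without a filter, by limma voom and with all groups in 1 fit, the share of all genes called is not given. Nor is it for the covariate fit from 6 to 12 weeks. These counts do not show whether the members or all genes changed.

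With the length trend removed (in brackets by longest coding transcript) there were 2 (1) nuclear calls in R6/2 at 6 weeks, 25 (23) nuclear and 5 (5) mitochondrial in R6/2 at 12 weeks, 1 (1) mitochondrial in the R6/2 difference between ages, 35 (36) nuclear and 8 (8) mitochondrial from 6 to 12 weeks, and 30 (34) nuclear and 3 (1) mitochondrial from 12 weeks to 1 year.

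Between samples of the same replicate number, deviations of log2 CPM from the group means correlated over genes at -0.168 to 0.142 in the 4 pairs of groups. The numbers were thus not taken to pair the samples. With a replicate block there were 4 mitochondrial calls in R6/2 at 12 weeks in place of 2, 1 between the lines in place of 0 and 3 from 6 to 12 weeks in place of 5, and 14 nuclear calls in R6/2 at 12 weeks in place of 11. The share of all genes called with the block is not given, so these counts are not set against it.

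Across all results and alternatives, 644 values kept their direction and side of the threshold or moved little, 62 moved by more, 50 lost their call and 2 reversed, those of Ndufs1 and mt-Co3 above.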
